A study of Homo sapiens with 16 samples.

Results

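Late phase P15 was compared with early phase P3 of the GRC1 cell line, a gemcitabine-resistant derivative of T24, which is a human urinary bladder carcinoma line. The genes described were all those with a mean above 1 CPM, a count scaled to a fixed library total, over the 4 libraries of P15 and the 4 of P3, which left 13318 of 39007 gene rows and 8 of 16 libraries. Each phase stands for 1 round of exposure of the surviving cells to gemcitabine followed by regrowth, P0 being parental T24 without exposure, and P3 and P15 therefore share the T24 background and the first 3 rounds. All cells were grown in DMEM with fetal bovine serum. The methods do not say whether gemcitabine was present when RNA was taken, and the library titles carry the letters NT without explaining them. The labels give 4 replicates per phase without saying whether they came from separate cultures, so the p-values measure the spread between these libraries, which may be technical. GRC1 is 1 derived line, and the effect of the number of exposures cannot be told apart from whatever else changed in this line between P3 and P15. The files hold no genotype, so that the P15 libraries come from the same line as those of P3 rests on the labels and was not tested.

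Gemcitabine is a deoxycytidine analog that enters cells through nucleoside transporters and is active only after phosphorylation, which deoxycytidine kinase starts. Its phosphorylated forms are built into DNA and block ribonucleotide reductase, the enzyme that supplies deoxynucleotides, and cytidine deaminase inactivates it. Drug-resistant carcinoma cells are known to differ from their parents in these enzymes and also in stress responses, matrix, adhesion and lineage genes.

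Values are log2 of CPM plus 1, where CPM is a gene's count scaled to the total of its library. The spacing of the lowest values placed the totals at 33700000 to 41300000 counts at P3 and 35900000 to 44700000 at P15, to the nearest 100000, so that 1 count was at most 0.0297 CPM. The median absolute difference of a gene between a pair of libraries was 0.06 to 0.08 within P3, 0.06 to 0.1 within P15 and 0.57 to 0.58 between both phases. No library stood apart from its phase. Mitochondrially encoded transcripts took 1.36 to 1.59% of the counts at P3 and 1.13 to 1.32% at P15, and the part of this difference in any result was not tested.

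A gene was called different at an adjusted p-value below 0.05 (limma, Benjamini-Hochberg over all 13318 genes) and a log2 fold change of at least 1. Of the 13318 genes, 3670 (27.6%) were called, 2112 (15.9%) higher and 1558 (11.7%) lower at P15. With quantile normalization, 1845 were higher and 1750 lower. The median log2 fold change over all genes was 0.08. Changes of at least 3 on the log2 scale were found in 419 genes, 201 higher and 218 lower, and changes of at least 5 in 77 genes, 25 higher and 52 lower. Because the libraries of a phase lay so close together, 11645 genes (87.4%) passed the adjusted p-value alone and the libraries of both phases did not overlap for 10963 genes (82.3%). The fold threshold, not the p-value, therefore set which genes were called. A gene near 0 in 1 phase passed the minimum level only through the other phase, which bears on the counts of every list below. In the plot of gene levels, the called genes lie on both sides of the diagonal over the whole range of levels.

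**Figure D1:**
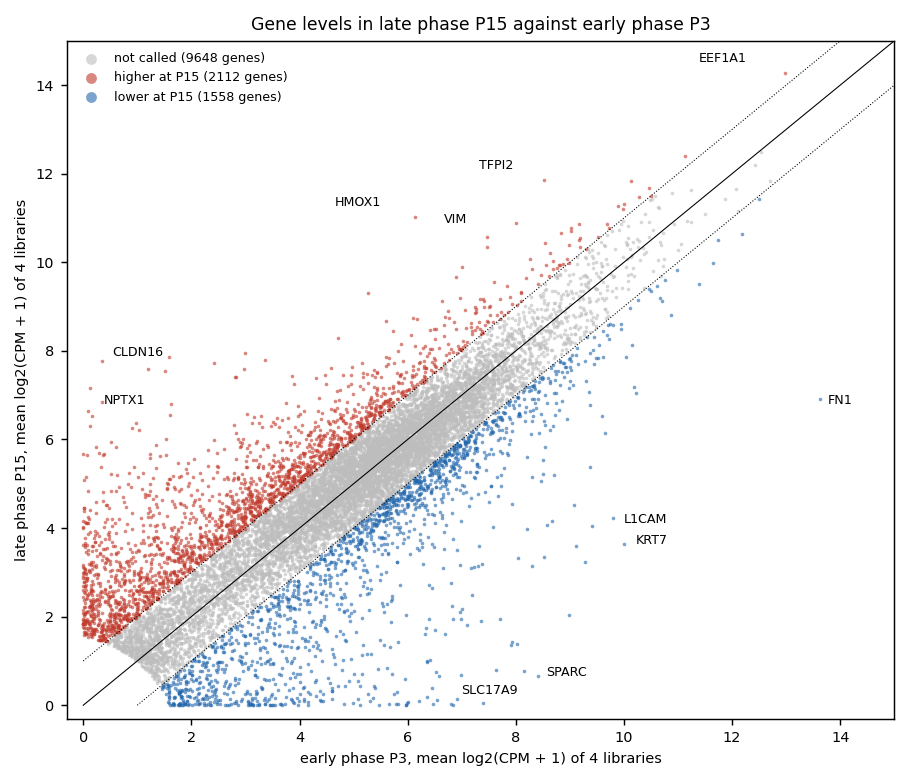
Mean level of each of the 13318 genes in early phase P3 (x axis) and late phase P15 (y axis), as log2(CPM + 1) over 4 libraries each. The solid line marks equal levels and the dotted lines a log2 difference of 1. The 2112 genes higher at P15 are red, the 1558 lower ones blue, and a band of blue points near 0 on the y axis holds genes such as SPARC that were close to absent at P15.

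Parental phase P0 and intermediate phase P7 mostly sided with P3. Of the 2112 genes higher at P15, the mean of P0 lay nearer to P3 than to P15 for 1839 (87.1%), and the mean of P7 for 2026 (95.9%). Of the 1558 lower genes, P0 lay nearer to P3 for 1399 (89.8%) and P7 for 1504 (96.5%). For 432 called genes (11.8%), the mean of P0 lay nearer to P15 than to P3, in some of them about midway. P7 lay nearer to P15 for only 140 of all 3670 called genes (3.81%). In most of the 432, P7 therefore sided with P3, and P3 was not set apart by itself. These counts compare means and carry no test.

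The genes that rose most were silent or low at P3. CLDN16, a claudin of tight junctions known for renal magnesium transport, read 0.45, 0.32, 0.20 and 0.41 in the 4 P3 libraries and 7.84, 7.74, 7.71 and 7.80 in the 4 P15 libraries. It rose by 7.43 (SE 0.116, adjusted p = 2.44e-25, limma), with means of 0.80 at P0 and 0.58 at P7. The neuronal pentraxin NPTX1, a secreted synaptic protein, read 0.0, 0.14, 0.13 and 0.24 at P3 and 7.17, 7.22, 7.19 and 7.04 at P15, a rise of 7.03 (SE 0.108, adjusted p = 2.01e-25, limma). PRAME, a tumour antigen normally restricted to testis, read 0.07, 0.14, 0.07 and 0.08 at P3 and 6.65, 6.68, 6.63 and 6.63 at P15 and rose by 6.56 (SE 0.0791). In these 3 genes every P15 library was above every P3 library by more than 6 log2 units, which follows from their choice as the largest rises. The rest of the 15 largest rises were PADI2 (6.50), a peptidylarginine deiminase, ISYNA1 (6.40), the inositol-3-phosphate synthase, the calcium channel gamma subunits CACNG8 (6.38) and CACNG7 (6.19), the FGF carrier FGFBP1 (6.26), the teneurin TENM2 (6.02), SAGE1, RAPGEF4 (5.60), a cyclic AMP-activated exchange factor, the matrix protein NPNT (5.58), the secretogranin SCG2 (5.42), the EGF receptor ligand EPGN (5.40) and the collagen receptor ITGA10 (5.40). SAGE1, an antigen of testis and tumours, was listed at 0 in all 4 P3 libraries and at 5.65, 5.64, 5.74 and 5.62 at P15, and no fold is given for it.

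The genes that fell most were expressed at P0, P3 and P7. SPARC, a collagen-binding matricellular protein, read 8.43, 8.46, 8.37 and 8.40 at P3 and 0.87, 0.41, 0.64 and 0.70 at P15, and fell by 7.76 on the log2 scale (SE 0.061, adjusted p = 4.2e-31, limma). Its means at P0 and P7 were 7.80 and 8.92. FN1, which encodes fibronectin, read 13.66, 13.51, 13.62 and 13.69 at P3 and 6.96, 6.79, 7.03 and 6.83 at P15. In CPM this was a mean of 12600 at P3 and 119 at P15, the largest loss of counts of any gene, and the log2 fold change was -6.72 (SE 0.0557). The neutrophil chemokine CXCL5 read 7.40, 7.50, 7.30 and 7.35 at P3 and 0.14, 0.07, 0.0 and 0.03 at P15, with a log2 fold change of -7.33. None of these 3 genes overlapped between the libraries of both phases, which follows from their choice as large falls and held for 82.3% of all genes. Others among the largest falls were the proteoglycan SPOCK1 (-7.38), the lipolysis inhibitor G0S2 (-6.94), the muscle-type filamin FLNC (-6.85), the nucleotide transporter SLC17A9, the metalloprotease ADAMTS12 (-6.76), ARHGDIB (-6.63) and RAC2 (-6.49), a GTPase regulator and a small GTPase best known from blood cells, the granule release factor UNC13D (-6.55), the acyl-CoA synthetase ACSL5 (-6.44) and KRT7 (-6.37), the keratin of simple and urothelial epithelium. SLC17A9 read 6.72, 6.91, 6.84 and 6.91 at P3 and was listed at 0 in all 4 P15 libraries, so no fold is given.

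**Figure D2:**
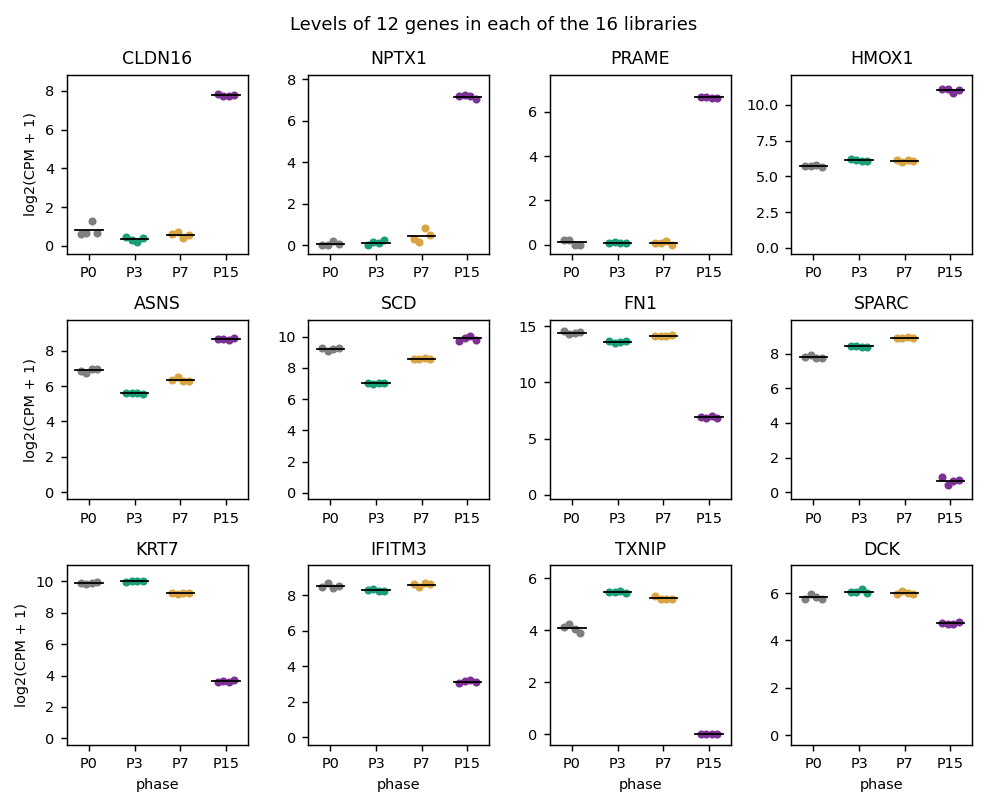
Levels of 12 genes as log2(CPM + 1), 1 point per library and a bar at the mean, by phase, with 4 libraries in each of P0, P3, P7 and P15. In every panel the 4 P15 points lie apart from the 4 P3 points, as they do for 82.3% of all genes. The P0 and P7 points lie nearer to P3 than to P15 except for SCD, whose P0 and P7 means of 9.21 and 8.57 are nearer to P15.

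Several genes went from a clear level to none or from none to a clear level. Of all 39007 rows, 42 had at least 5 CPM in every P3 library and at most 0.1 CPM in every P15 library, and 17 of them were listed at 0 throughout P15. Of these 42, 37 had a P0 mean and 41 a P7 mean of at least 5 CPM. TXNIP, an inhibitor of thioredoxin and of glucose uptake, read 5.46, 5.48, 5.50 and 5.44 at P3 and was listed at 0 in each P15 library, while its means were 4.08 at P0 and 5.24 at P7. The other direction held 29 genes, 10 of them listed at 0 throughout P3, and none of the 29 reached 5 CPM on average at P0 or P7. Besides SAGE1, they included the transcription factor TSHZ3, which read 0.07, 0.0, 0.0 and 0.0 at P3 and 5.05, 4.98, 5.13 and 5.16 at P15, and the calretinin gene CALB2, at 0.0, 0.07, 0.0 and 0.08 and 3.57, 3.67, 3.78 and 3.61. TXNIP, TSHZ3 and CALB2 were chosen after their values were seen.

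The genes that carry, activate and inactivate gemcitabine changed in both directions. Of 29 measured members, 6 rose, 7 fell and 16 were not called (44.8% called, against 27.6% of all genes). The median log2 fold change was 0.07 against 0.08 over all genes. Among the transporters, the equilibrative nucleoside transporter SLC29A2 read 1.25, 1.42, 1.31 and 1.70 at P3 and 5.56, 5.55, 5.78 and 5.61 at P15 and rose by 4.21 (SE 0.104, adjusted p = 1.93e-21, limma). SLC29A4 rose by 3.05, and the main gemcitabine carrier SLC29A1 gave 0.74 and SLC29A3 0.04, neither of which was called. The concentrative carriers SLC28A1, SLC28A2 and SLC28A3 did not pass the filter on low values.

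Deoxycytidine kinase, DCK, which makes the first phosphorylated form of gemcitabine, read 6.05, 6.04, 6.17 and 6.0 at P3 and 4.75, 4.71, 4.69 and 4.79 at P15. It fell by 1.33 (SE 0.0493, adjusted p = 6.28e-18, limma), and its means at P0 and P7 were 5.83 and 6.0. The 4 P15 libraries were all below the 4 P3 libraries, and the libraries of both phases were likewise apart for 82.3% of all genes. TK1, the thymidine kinase of S phase, fell by 1.14, and the mitochondrial nucleotide kinase CMPK2 by 1.67, while TK2 gave 0.27, CMPK1 -0.21 and NME1 0.29. Of the enzymes that remove gemcitabine or its phosphates, cytidine deaminase CDA read 0.97, 0.96, 0.39 and 0.96 at P3 and 1.93, 2.31, 1.88 and 2.23 at P15 and rose by 1.27 (SE 0.142), and the mitochondrial nucleotidase NT5M rose by 3.15. The cytosolic nucleotidase NT5C2 fell by 1.25, SAMHD1, which hydrolyses deoxynucleoside triphosphates, fell by 1.67, and DCTD gave -0.30, NT5C 0.52, NT5C3A 0.07, NT5C3B -0.04, NT5E 0.87 and DUT -0.08. Thymidine phosphorylase TYMP and uridine phosphorylase UPP1, which split pyrimidine nucleosides, rose by 4.14 and 1.58. With a pseudocount of 5 in place of 1, CDA gave 0.52 and CMPK2 -0.99, both short of the fold threshold.

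Both subunits of ribonucleotide reductase, the target of the diphosphate, were lower. RRM1 read 8.48, 8.42, 8.44 and 8.41 at P3 and 7.40, 7.39, 7.32 and 7.40 at P15 and fell by 1.06 (SE 0.0341), though with quantile normalization its log2 fold change of -0.97 missed the fold threshold. RRM2 read 9.58, 9.66, 9.61 and 9.58 at P3 and 8.43, 8.43, 8.46 and 8.46 at P15 and fell by 1.16 (SE 0.027). The p53-dependent subunit RRM2B gave 0.20, thymidylate synthase TYMS -0.90, CTPS1 -0.48 and CTPS2 0.58, none of them called. The RRM2 mean of P0, 8.69, was nearer to that of P15, and the RRM1 mean of P0, 8.13, nearer to that of P3. Of 8 measured ABC efflux transporters, which pump drugs out of cells, 1 was called (12.5%, against 27.6% of all genes). This was ABCC3, with a rise of 1.78, and ABCB1 gave 0.71. In the plot of this group, SLC29A2, TYMP and NT5M stand at the top and DCK, CMPK2 and SAMHD1 at the bottom.

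**Figure D3:**
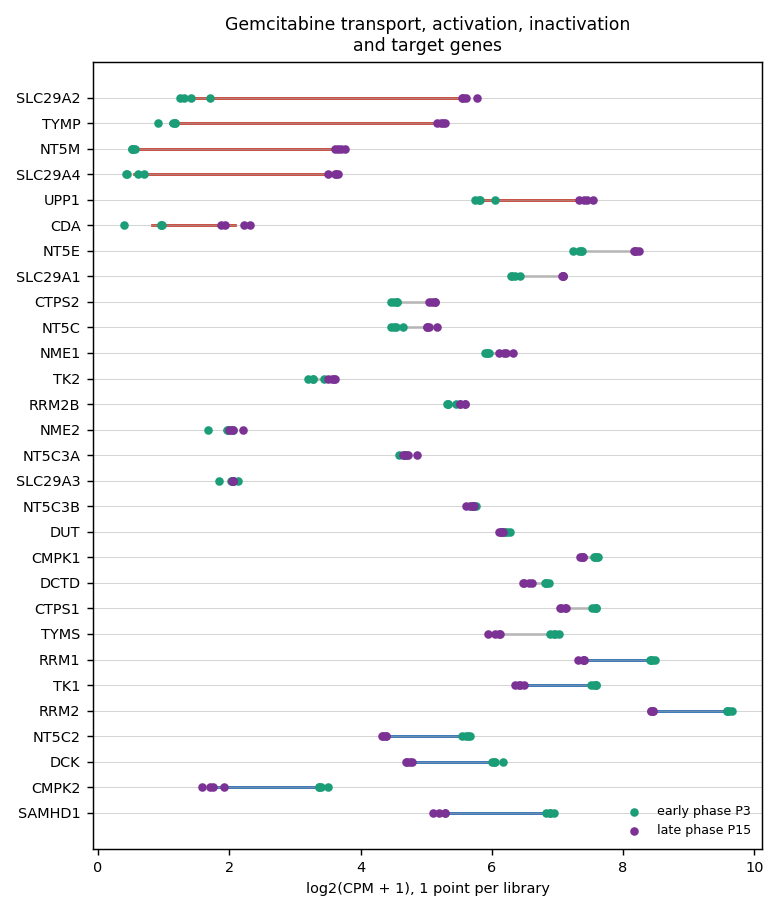
Levels of the 29 measured genes of gemcitabine transport and metabolism as log2(CPM + 1), 1 point per library, ordered by the difference P15 minus P3. Red lines join genes called higher at P15 (6), blue lines genes called lower (7) and grey lines genes not called (16); SLC29A2 and TYMP show the widest gaps, above 4 log2 units.

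Interferon-stimulated genes, which encode antiviral effectors and are switched on by the ISGF3 complex binding a response element in their promoters, were lower at P15. Of 51 measured members, 30 fell, none rose and 21 were not called (58.8% called, against 27.6% of all genes), and the median was -1.21. At an unadjusted p below 0.05 without the fold threshold, limma gave 4 higher and 43 lower. IFITM3, a membrane protein that blocks viral entry, read 8.31, 8.38, 8.24 and 8.24 at P3 and 3.08, 3.20, 3.21 and 3.11 at P15 and fell by 5.14 (SE 0.0512, adjusted p = 3.08e-29, limma). BST2, which tethers virions to the cell surface, read 6.96, 7.04, 6.94 and 6.98 at P3 and 1.87, 2.10, 1.90 and 1.94 at P15 and fell by 5.03. Both genes, chosen among the largest falls of the list, were far below P3 in each P15 library. IFITM2 and IFI27 fell by 5.41 and 5.02, although IFITM1, IFITM2 and IFITM3 are near-identical copies whose reads may be split between them. Other classical members were not called, among them ISG15 (-0.77), IFIT1 (-0.84), DDX58 (-0.41), DDX60 (0.06), HERC5 (-0.13) and USP18 (0.63).

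The promoters of these genes show the element itself. They are shown as RefSeq promoters of GRCh38.p14, from 250 bases before to 50 after the gene's start, 5′ to 3′ on the gene's strand, for the 2 genes of the list that fell most and the 2 uncalled genes with the smallest change, among those that hold the element. The capitals mark matches to GAAA, any 2 bases and GAAA again or, on the other strand, TTTC, any 2 bases and TTTC, and neighbouring matches can overlap.
IFITM3 (chr11:320811-321110, minus strand): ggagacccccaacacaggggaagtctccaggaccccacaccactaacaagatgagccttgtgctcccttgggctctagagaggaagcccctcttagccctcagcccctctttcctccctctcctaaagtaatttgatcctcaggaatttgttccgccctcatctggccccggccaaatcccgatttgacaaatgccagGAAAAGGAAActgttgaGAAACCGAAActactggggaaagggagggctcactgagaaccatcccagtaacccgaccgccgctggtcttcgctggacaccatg
BST2 (chr19:17405581-17405880, minus strand): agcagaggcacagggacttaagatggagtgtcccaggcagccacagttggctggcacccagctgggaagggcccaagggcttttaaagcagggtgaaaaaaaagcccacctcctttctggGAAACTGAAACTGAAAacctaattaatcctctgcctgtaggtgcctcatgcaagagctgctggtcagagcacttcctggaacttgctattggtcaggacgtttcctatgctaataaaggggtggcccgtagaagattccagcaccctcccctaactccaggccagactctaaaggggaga
DDX60 (chr4:168318703-168319002, minus strand): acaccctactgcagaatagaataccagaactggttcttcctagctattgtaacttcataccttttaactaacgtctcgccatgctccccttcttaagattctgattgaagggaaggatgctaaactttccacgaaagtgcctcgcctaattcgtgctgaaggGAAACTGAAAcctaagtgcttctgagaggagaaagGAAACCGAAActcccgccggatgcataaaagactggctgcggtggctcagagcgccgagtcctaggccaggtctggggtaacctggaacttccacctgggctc
HERC5 (chr4:88456869-88457168, plus strand): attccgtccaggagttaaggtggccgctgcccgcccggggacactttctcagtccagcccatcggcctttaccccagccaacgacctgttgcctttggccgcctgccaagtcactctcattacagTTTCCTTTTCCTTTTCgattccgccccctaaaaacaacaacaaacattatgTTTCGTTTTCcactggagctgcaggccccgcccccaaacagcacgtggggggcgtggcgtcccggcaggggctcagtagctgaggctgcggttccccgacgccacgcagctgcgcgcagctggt

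Genes with the element were found on both sides of the call. Of the list, 43 members had a promoter in the reference set, and 27 held the element, 14 of the 25 that fell and 13 of the 18 that were not called. Over all 27305 promoters of the set, 1 per gene, 996 (3.65%) held it, and of the 10112 tested genes with a promoter, 2.76%. A match describes letters in this window and no binding.

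The interferons and their receptors did not follow the list of their targets. Of 20 measured genes, 5 rose, none fell and 15 were not called (25% called, against 27.6% of all genes), with a median of 0.32. At an unadjusted p below 0.05 without the fold threshold, 6 were lower (limma). The lambda interferon IFNL1 read 1.71, 1.61, 1.53 and 1.34 at P3 and 2.91, 2.96, 2.94 and 2.81 at P15, a rise of 1.36, with P0 at a mean of 0.06, and its near-identical copies IFNL2 and IFNL3 gave rises of 1.31 and 1.34. The receptor subunits IFNLR1 and IFNGR2 rose by 1.19 and 1.20. With a pseudocount of 5, which weighs down low genes, IFNL1 (0.73), IFNL2 (0.44), IFNL3 (0.46) and IFNLR1 (0.88) were not called. The signalling factors STAT2 (-0.13) and IRF9 (0.96) were not called.

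Antigen presentation genes were mostly lower. Of 22 measured, 11 fell, 1 rose and 10 were not called (54.5% called, against 27.6% of all genes), with a median of -0.92. The class II genes HLA-DPB1 and CD74 fell by 5.19 and 3.73, and the immunoproteasome subunit PSMB10 by 2.41. B2M, the light chain of class I molecules, fell by 1.12, HLA-DMA rose by 1.01 (not called without P15 replicate 1, P15 replicate 4, P3 replicate 1 or P3 replicate 4, with 0.92, 0.96, 0.97 and 0.97), and HLA-C gave -0.55. The HLA genes are polymorphic and similar to each other, so their reads may be shared. Of the APOBEC3 cytidine deaminases, 4 were measured. APOBEC3G read 5.28, 5.35, 5.21 and 5.23 at P3 and 0.20, 0.33, 0.35 and 0.18 at P15 and fell by 5.0, while APOBEC3B (0.10), APOBEC3C (-0.35) and APOBEC3F (0.52) were not called.

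Cytokines and chemokines moved both ways, with 8 of 30 measured genes higher, 11 lower and 11 not called (63.3% called, against 27.6% of all genes). Besides CXCL5, the interleukins IL1A and IL1B fell by 4.69 and 3.99. The interleukin IL24 read 3.01, 2.88, 3.02 and 2.95 at P3 and 7.66, 7.73, 7.31 and 7.67 at P15 and rose by 4.63, and IL32 and CCL20 rose by 2.93 and 2.69. CXCL8 rose by 1.20 from a mean of 10.27 to 11.47, with P0 at 9.15 and P7 at 7.34. Of 20 NF-kappaB subunits and feedback inhibitors, of which 30% were called against 27.6% of all genes, 3 rose, led by BIRC3 (2.64) and BCL3 (2.32), and 3 fell, led by IKBKE (-3.39) and TNFAIP3 (-2.28). TNFAIP3 was highest at P3, with means of 6.9 at P0, 8.4 at P3, 6.9 at P7 and 6.2 at P15.

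Genes of the extracellular matrix changed composition. Of 22 measured collagens, 5 rose, 10 fell and 7 were not called (68.2% called, against 27.6% of all genes), with a median of -0.83. The list has 36 rows, and COL5A1 and COL3A1 passed the filter on low values only through their level at P15. Collagens together took 0.499 to 0.526% of the counts at P3 and 0.163 to 0.172% at P15. The largest falls were COL4A6 (-3.54), COL8A1 (-3.03) and COL7A1 (-2.72). The fibrillar collagen COL5A1 read 0.04, 0.07, 0.31 and 0.08 at P3 and 4.28, 4.44, 4.53 and 4.34 at P15 and rose by 4.27, and COL3A1 read 0.07, 0.0, 1.61 and 0.08 and 4.57, 4.50, 4.57 and 4.40 and rose by 4.07. COL3A1 had 1 P3 library above the rest, and all P3 libraries stayed below P15. COL1A1 rose by 3.18.

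Of 27 measured matricellular and crosslinking genes, 5 rose, 9 fell and 13 were not called (51.9% called, against 27.6% of all genes). Besides SPARC, SPOCK1 and FN1, the crosslinking enzyme LOX fell by 4.36 and the adhesion protein TGFBI by 4.30, and the hyaluronan synthases HAS2 and HAS3 rose by 3.10 and 2.36. Of 39 matrix-degrading enzymes and inhibitors, 23 passed the filter on low values. Among these 23, 10 rose, 7 fell and 6 were not called (73.9% called, against 27.6% of all genes). Stromelysin MMP3 read 2.88, 2.98, 2.63 and 2.79 at P3 and 7.46, 7.47, 7.22 and 7.48 at P15 and rose by 4.59, MMP10 and MMP1 rose by 2.70 and 2.51, and MMP14 and the inhibitor TIMP3 fell by 3.29 and 3.93. Integrins and laminins gave 7 rises and 6 falls among 27 (48.1% called, against 27.6% of all genes), led by ITGA10 and ITGB4 (3.18) upward and ITGB8 (-3.36) downward.

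The contractile cytoskeleton was lower. Of 24 measured genes of actin filaments and myosin, 8 fell, 1 rose and 15 were not called, with a median of -0.52. The share called was 37.5%, against 27.6% of all genes. The smooth muscle protein TAGLN fell by 4.17 and the myosin light chain MYL9 by 4.07, and FLNC fell as given above. TAGLN was highest at P3, with means of 4.3 at P0, 7.3 at P3, 3.9 at P7 and 3.1 at P15. With quantile normalization, none rose and 7 fell. Of 28 targets and factors of YAP and TEAD, which sense cell tension, 10 fell, 3 rose and 15 were not called. The share called was 46.4%, against 27.6% of all genes. Tissue factor F3 and ANKRD1 fell by 5.36 and 4.03, IGFBP3 and TEAD2 rose by 2.34 and 2.27, and the most used readouts CYR61 and CTGF gave 0.37 and -0.91, neither called.

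Several epithelial and urothelial identity genes were lower at P15, and mesenchymal genes moved both ways. Of 14 measured luminal and urothelial genes, 7 fell, 4 rose and 3 were not called (78.6% called, against 27.6% of all genes). The list has 25 rows, and ELF3 passed the filter on low values only through P15 and KRT19 only through P3. KRT7 read 9.97, 10.02, 10.02 and 10.02 at P3 and 3.59, 3.66, 3.59 and 3.73 at P15, and KRT19 read 5.58, 5.81, 5.62 and 5.62 and 0.0, 0.07, 0.0 and 0.0, so that KRT19 was close to absent at P15. KRT8 fell by 3.50, whereas its partner KRT18 gave 0.28 and was not called. The urothelial transcription factors GATA3, FOXA1 and PPARG fell by 3.33, 1.56 and 1.41, and ERBB3, ELF3 and the uroplakin UPK1A rose by 2.97, 2.13 and 1.23. Of 10 basal and squamous genes (70.0% called, against 27.6% of all genes), ITGB4, KRT17 (2.35) and KRT16 (2.09) rose. PI3 (-2.78), DSC3 and CD44 (-1.06) were among the 4 that fell. PI3 was highest at P3, with means of 0.27 at P0, 4.10 at P3, 1.74 at P7 and 1.32 at P15. DSC3 was listed at 0 in all 4 P15 libraries, so no fold is given. KRT16 and KRT17 are similar in sequence.

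Of 24 measured adhesion and polarity genes, 7 rose, 6 fell and 11 were not called (54.2% called, against 27.6% of all genes). The rises were led by PPL (3.61), TJP3 (2.18) and CGN (1.88), and the falls by MAL2 (-3.77), PKP3 (-2.21) and ESRP2 (-1.86). E-cadherin CDH1 was at or below 0.1 CPM in every library of both phases. Of 15 EMT factors and mesenchymal markers, 4 rose, 3 fell and 8 were not called (46.7% called, against 27.6% of all genes). Vimentin VIM read 7.45, 7.52, 7.51 and 7.42 at P3 and 10.61, 10.64, 10.49 and 10.58 at P15 and rose by 3.11 (SE 0.0342), with P0 at 5.53 and P7 at 9.01, so that its 4 phase means followed the order of the phases. FOXD1, SNAI1 and ZEB1 rose by 3.04, 2.43 and 1.10, ZEB2 and SNAI2 fell by 2.48 and 1.21, and N-cadherin CDH2 gave -0.77.

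Markers of other cell types were checked beside these results. The 6 epithelial markers summed to 2350 to 2480 CPM at P3 and 673 to 751 CPM at P15, and the 10 urothelial markers to 77.9 to 85.2 and 22.7 to 26.2 CPM, with UPK1B, UPK3A and KRT20 at or below 0.1 CPM in both phases. The 8 fibroblast markers, which include COL1A1 and COL3A1, summed to 1.88 to 6.16 CPM at P3 and 46.6 to 51.7 CPM at P15, while DCN and FAP were at or below 0.1 CPM at P15. The 7 leukocyte markers in the table summed to 1.88 to 2.41 CPM at P3 and 0.18 to 0.333 CPM at P15, with PTPRC and CD3E at or below 0.1 CPM in both. Endothelial markers summed to at most 1.09 CPM, erythroid markers to at most 0.223 and hepatocyte markers to at most 0.157, and the 4 neural markers summed to 1.38 to 1.8 CPM at P3 and 36.8 to 38.2 CPM at P15. Only 1 of these 4 neural markers, SYP, passed the filter on low values, with a rise of 4.39, so the sum describes mainly this gene. These are bulk libraries, in which fewer cells of a kind and less RNA per cell cannot be told apart.

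ATF4 is the transcription factor of the integrated stress response, which cells mount when amino acids or protein folding fail. Of 36 measured members and targets, 20 rose, 1 fell and 15 were not called (58.3% called, against 27.6% of all genes), with a median of 1.28. Asparagine synthetase ASNS read 5.61, 5.63, 5.60 and 5.53 at P3 and 8.69, 8.66, 8.59 and 8.74 at P15 and rose by 3.08 (SE 0.0478, adjusted p = 2.32e-25, limma). The secreted GDF15 read 5.26, 5.32, 5.27 and 5.25 at P3 and 9.32, 9.50, 8.98 and 9.39 at P15 and rose by 4.02, and DDIT4 rose by 2.77. For ASNS and GDF15, the P0 means of 6.89 and 7.04 lay between P3 and P15. The serine synthesis enzyme PHGDH rose by 1.73 and DDIT3 by 1.96, the neutral amino acid carrier SLC1A4 fell by 1.84, and ATF4 itself gave 0.35 and CHAC1 0.48, neither called. Of 34 ER chaperones and other members of the unfolded protein response, 2 rose, HERPUD1 (1.46) and HSPA5 (1.04, and 0.98 without P15 replicate 2, where it was not called), and 5 fell, led by DNAJC3 (-1.82), a share of 20.6% called against 27.6% of all genes.

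Sterol and fatty acid synthesis, which the SREBP factors drive when cell cholesterol is low, was higher. Of 35 measured genes, 18 rose, 2 fell and 15 were not called (57.1% called, against 27.6% of all genes), with a median of 1.02. Their share of the counts went from 0.36 to 0.371% at P3 to 0.644 to 0.702% at P15. At P0 it was 0.557 to 0.587%. Stearoyl-CoA desaturase SCD read 7.01, 6.96, 7.04 and 7.03 at P3 and 9.75, 9.93, 10.07 and 9.80 at P15 and rose by 2.88, and INSIG1 and FADS2 rose by 2.56 and 2.33. The SCD mean of P0, 9.21, was nearer to P15 than to P3.

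Promoters of both lists were searched for the element of the respective factor. TCACNCCAC, a form of the sterol regulatory element, was found in 1 of the 28 sterol list members with a promoter, SREBF2, against 1.15% of all promoters and 1.02% of those of tested genes. TGATGNAA, a form of the C/EBP-ATF element, was found in 5 of 29 ATF4 list members against 3.67% of all promoters and 1.6% of those of tested genes. It was found in 3 of the 12 members that did not rise and in 2 of the 17 that rose, ASNS and the alanyl-tRNA synthetase AARS (1.67). Both strands were searched. The promoters of SREBF2 and ASNS are shown because they are the members with the largest rise that hold the element, which is in capitals.
SREBF2 (chr22:41832855-41833154, plus strand): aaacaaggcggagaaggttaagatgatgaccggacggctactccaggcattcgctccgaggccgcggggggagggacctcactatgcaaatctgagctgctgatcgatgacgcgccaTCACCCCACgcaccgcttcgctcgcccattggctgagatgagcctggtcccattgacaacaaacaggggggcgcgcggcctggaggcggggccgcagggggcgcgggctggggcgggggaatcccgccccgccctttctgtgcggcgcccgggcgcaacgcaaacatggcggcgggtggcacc
ASNS (chr7:97872359-97872658, minus strand): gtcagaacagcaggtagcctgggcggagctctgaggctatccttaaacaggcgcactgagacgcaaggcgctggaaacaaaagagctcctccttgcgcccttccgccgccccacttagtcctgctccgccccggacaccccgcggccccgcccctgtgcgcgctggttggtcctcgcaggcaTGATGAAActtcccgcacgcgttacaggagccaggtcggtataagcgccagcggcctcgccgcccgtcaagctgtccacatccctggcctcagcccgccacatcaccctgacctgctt

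Hypoxia and glycolysis genes were lower. Of 37 measured, 13 fell, 1 rose and 23 were not called (37.8% called, against 27.6% of all genes), with a median of -0.73. Their share of the counts was 3.01 to 3.08% at P3 and 1.87 to 1.98% at P15. The glucose transporter SLC2A3 read 5.90, 5.72, 5.79 and 5.83 at P3 and 0.07, 0.30, 0.22 and 0.57 at P15 and fell by 5.52. The peptide hormone ADM and the mitophagy receptor BNIP3 fell by 4.10 and 2.97, lactate dehydrogenase LDHA by 1.54 and PGK1 by 1.46. PFKM rose by 1.32, and SLC2A1 (-0.52) was not called. With quantile normalization, 2 members rose and 13 fell.

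Of 38 genes of NRF2 and glutathione, 7 rose and 7 fell (36.8% called, against 27.6% of all genes). Heme oxygenase HMOX1 read 6.23, 6.17, 6.08 and 6.09 at P3 and 11.07, 11.11, 10.85 and 11.04 at P15 and rose by 4.88 (SE 0.0486, adjusted p = 3.1e-29, limma), from a mean of 69.7 to 2077 CPM. The other P15 rises were smaller, ALDH1A3 with 2.07 and NFE2L2, which encodes NRF2, with 1.35, and the classical target NQO1 gave -0.39. The glutathione transferases MGST2 and GSTM1 fell by 4.29 and 3.03. Lysosome genes gave 6 rises and 10 falls among 51 (31.4% called, against 27.6% of all genes), led by GAA and CTSC upward (1.82 and 2.07) and by CTSS (-6.07) and LAPTM5 (-5.93), both best known from blood cells, downward.

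Cytoplasmic ribosomal protein genes took a larger share of the counts at P15. Those measured had a median of 0.81, and 23 of 84 (27.4%) rose, none fell and 61 were not called, against 15.9% of all genes higher. At an unadjusted p below 0.05 without the fold threshold, 9 were lower (limma). Together they took 4.85 to 4.96% of the counts at P3 and 7.97 to 8.64% at P15, with 6.29 to 6.61% at P0. With quantile normalization 17 rose. RPL22L1 (2.06), RPL13A (1.69) and RPS29 (1.59) rose most. Of 33 cytoplasmic elongation and initiation factors, 5 rose, 1 fell and 27 were not called (18.2% called, against 27.6% of all genes). Their median was 0.28, and 11 were lower at an unadjusted p below 0.05 without the fold threshold (limma). The elongation factor EEF1A1 read 13.01, 12.93, 13 and 12.96 at P3 and 14.35, 14.27, 14.18 and 14.30 at P15 and rose by 1.30, and it gained more counts than any other gene, from a mean of 8052 to 19840 CPM. Ribosomal protein genes and EEF1A1 have many processed pseudogenes, so their values are uncertain where reads fit several copies. The 13 mitochondrially encoded genes gave no call, against 27.6% of all genes called, and a median of -0.48. At an unadjusted p below 0.05 without the fold threshold, 11 were lower (limma).

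**Figure D4:**
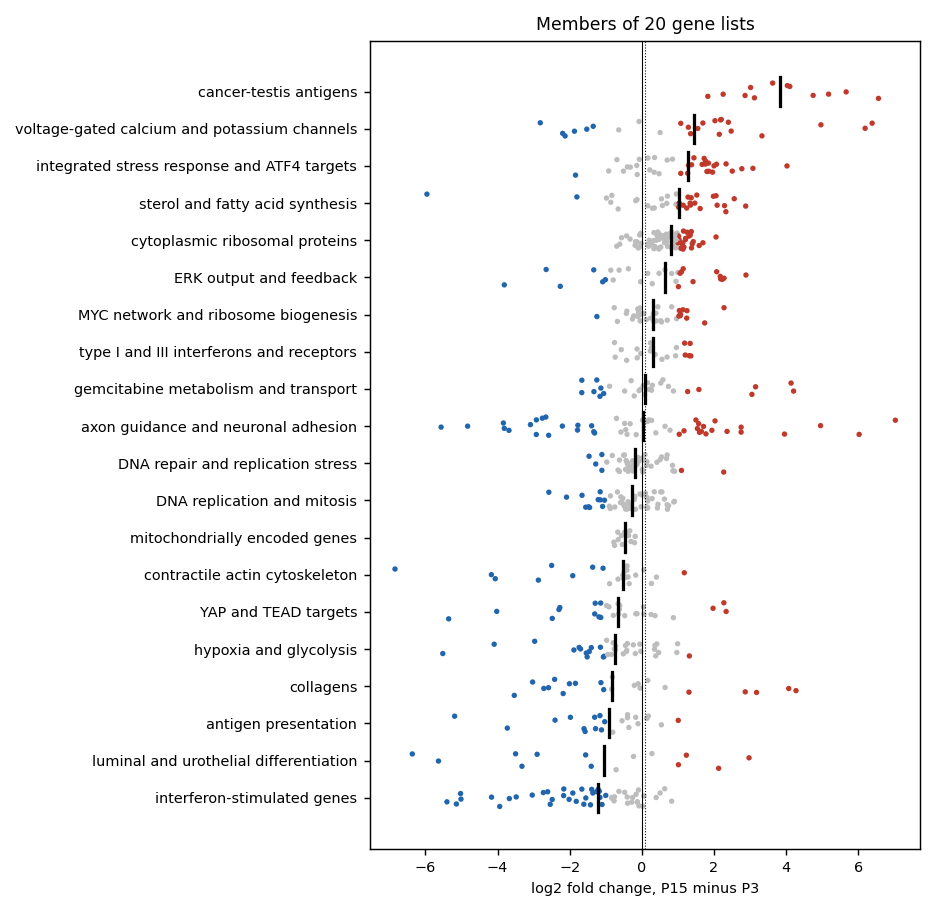
Log2 fold change, P15 minus P3, of each measured member of 20 gene lists (1 point per gene, red called higher, blue called lower, grey not called), with a black bar at the list's median. The dotted line is the median of all 13318 genes, 0.08. The stress response and sterol lists lie mostly to the right, and the interferon-stimulated, collagen and luminal lists mostly to the left.

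Growth signalling genes showed more rises than falls in some groups. Of 29 genes of ERK output and feedback, 11 rose, 6 fell and 12 were not called, with a median of 0.64. The share called was 58.6%, against 27.6% of all genes. IER3 rose by 2.89, MYC by 2.28 and SPRY1 by 2.23, EPHA4 and DUSP4 fell by 3.82 and 2.66, and the common readout DUSP6 gave 0.29. MYC read 6.06, 6.14, 6.03 and 6.05 at P3 and 8.28, 8.30, 8.40 and 8.41 at P15. Of the AP-1 factors, ATF3 (2.41), JUND (2.40) and BATF3 (1.53) led 5 rises among 16 (43.8% called, against 27.6% of all genes). JDP2 (-1.27) and FOSL1 (-1.01) fell, FOSL1 with no call without P15 replicate 1 (-0.95) or P3 replicate 2 (-0.99). Among the EGF and FGF ligands and receptors, EPGN, FGFR4 (4.42) and ERBB3 led 6 rises among 18 (50.0% called, against 27.6% of all genes), and TGFA (-2.26) led 3 falls. EGFR gave 0.37.

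Of 42 TGF-beta and BMP genes (38.1% called, against 27.6% of all genes), 10 rose, led by BMP6 (4.14), and 6 fell, led by INHBB (-4.94) and BMP4 (-2.91). Of 31 WNT genes (41.9% called, against 27.6% of all genes), 7 rose, led by NKD2 and NOTUM (3.44), both feedback inhibitors. NKD2 was listed at 0 in every P3 library, so no fold is given. The 6 falls were led by the inhibitor DKK1 (-4.73). The MYC network and ribosome biogenesis list gave 9 rises and 1 fall, RRS1 (-1.25), among 37, a share of 27.0% called against 27.6% of all genes. The VEGF and PDGF list gave 3 rises and 3 falls among 12 (50.0% called, against 27.6% of all genes), led by PDGFRL (2.25) and NRP1 (-2.93).

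Of 57 measured genes of DNA replication and mitosis, 11 fell, none rose and 46 were not called, with a median of -0.28. The share called was 19.3%, against 27.6% of all genes. At an unadjusted p below 0.05 without the fold threshold, 19 were higher (limma). The flap endonuclease FEN1 read 7.55, 7.50, 7.55 and 7.56 at P3 and 5.08, 4.84, 5.0 and 4.92 at P15 and fell by 2.58 (SE 0.045), the origin licensing factor CDC6 fell by 2.09 and the helicase subunit MCM4 by 1.66. The cell cycle genes CDK1 (0.43) and CCNB1 (-0.29) were not called. Among G1 regulators, CCNE2 (-2.73) and E2F1 (-1.56) led 5 falls and CDKN2B (2.26) led 4 rises among 24 (37.5% called, against 27.6% of all genes). Of 51 DNA repair genes, 2 rose, ERCC1 (2.27) and RAD52 (1.10), and 4 fell, led by BRCA1 (-1.47) and CLSPN (-1.28), a share of 11.8% called against 27.6% of all genes. ERCC1, a nuclease subunit of nucleotide excision repair, read 5.86, 6.0, 5.77 and 5.89 at P3 and 8.10, 8.17, 8.15 and 8.17 at P15.

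Of 33 regulators of cell death, 7 rose and 7 fell (42.4% called, against 27.6% of all genes). The p53 target BBC3 rose by 3.25 and the survival proteins BIRC3 and BCL2A1 (2.04) rose, as did MCL1 (1.58). The caspases CASP1 and CASP10 fell by 4.10 and 2.96, and the death receptor FAS by 1.40. BCL2 (-0.52) and BCL2L1 (0.10) were not called.

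Several genes best known from neurons and from the germ line were higher at P15. Of 24 measured subunits of voltage-gated and potassium channels, 15 rose, 6 fell and 3 were not called, and the median was 1.45. The share called was 87.5%, against 27.6% of all genes. Another 26 of the 50 rows of this list did not pass the filter on low values, and genes near 0 at P3 passed it only through their level at P15, so the count is no finding about the list. With a pseudocount of 5, 6 rose and 3 fell and the median was 0.78, and with 0.1 the median was 2.38. CACNG8 read 0.07, 0.0, 0.31 and 0.24 at P3 and 6.47, 6.55, 6.64 and 6.49 at P15, CACNG7 read 0.0, 0.20, 0.20 and 0.08 and 6.30, 6.33, 6.32 and 6.28, and CACNG6 rose by 3.33. These 3 genes lie next to each other on chromosome 19, at chr19:53909278-53943950 (CACNG7), chr19:53962937-53990215 (CACNG8) and chr19:53991637-54012666 (CACNG6). The calcium-activated potassium channel KCNN4 read 2.95, 2.90, 2.87 and 3.24 at P3 and 7.90, 8.07, 7.89 and 7.95 at P15, and SCN8A fell by 2.82. Of 50 measured axon guidance and neuronal adhesion genes (70.0% called, against 27.6% of all genes), 18 rose, led by NPTX1, TENM2 and ROBO1 (4.95). The 17 falls were led by L1CAM (-5.57), SLIT2 (-4.83) and RELN (-3.84). The list has 69 rows, and genes near 0 at P3, such as NPTX1, passed the filter only through P15, so the count is no finding about the list. The synaptic vesicle protein SYP rose by 4.39.

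The 12 measured cancer-testis antigens all rose (100% called, against 27.6% of all genes), led by PRAME, SAGE1 and MAGEA3. MAGEA3 read 1.08, 0.96, 0.90 and 1.20 at P3 and 6.21, 6.19, 6.18 and 6.26 at P15, and the meiotic gene HORMAD1 read 0.07, 0.10, 0.20 and 0.0 and 4.85, 4.74, 4.99 and 4.78. Of 58 rows of this family in the table, 46 did not pass the filter on low values, and a gene near 0 at P3 could pass it only through a rise at P15, so that the count is no finding about the family. The MAGEA, GAGE and CT45A genes are near-identical copies, and reads may be split between them. Of 27 measured HOX genes (44.4% called, against 27.6% of all genes), 9 fell, led by HOXB5 (-3.08) and HOXA13 (-2.53), and 3 rose, led by HOXC10 (3.71). Chromatin regulators and DNA methylation genes gave 3 calls among 26 (11.5%, against 27.6% of all genes), with rises of DNMT3A (1.63) and TET1 (1.41) and a fall of HDAC1 (-1.18).

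The study scored chemoresistance with 23 genes that it chose on these libraries, so their direction is no independent evidence. Of the 22 that were measured, 8 rose, 5 fell and 9 were not called between P3 and P15 (59.1% called, against 27.6% of all genes). The rises were led by FOXD1, MYC and STC1 (2.23) and the falls by APOBEC3G, GATA3 and TRNP1 (-2.48).

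The changes were spread unevenly over the genome. Positions were those of GENCODE version 44 on GRCh38, which 12597 of the tested genes (94.6%) matched. The median log2 fold change per chromosome ran from -0.50 on chromosome 11 to 0.47 on chromosome 19. On chromosome 19, 267 of 922 genes (29.0%) were higher and 43 (4.66%) lower, and on chromosome 11, 63 of 716 (8.8%) were higher and 201 (28.1%) lower, against 15.9% and 11.7% of all genes. Chromosome 6 had a median of 0.31 and chromosomes 13 and 20 medians of -0.27 and -0.23. Against P3, the medians of P0 and P7 on chromosome 19 were 0.05 and 0.05, and on chromosome 11 0.07 and 0.01. With quantile normalization the medians of P15 on chromosomes 19 and 11 were 0.40 and -0.51.

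Within chromosomes, stretches of neighbouring genes moved together. A running median over 31 neighbouring genes reached at least 0.5 in either direction over 30 or more genes in 17 stretches, a threshold chosen after the values were seen, and these held 927 genes. The stretch with the most genes, though not the longest in bases, lay on the long arm of chromosome 19 (chr19:40069152-51986856, GRCh38), where 177 of 224 genes were above 0, 88 were called higher and 10 lower, and the median was 0.80. ERCC1 and RPL13A lie in it. A second stretch of the same chromosome (chr19:54040825-56160893) held 45 genes with a median of 0.92. Falling stretches were found on chromosome 11 (chr11:18468336-45883248, 68 genes, median -0.89), chromosome 20 (chr20:44531785-50192668, 49 genes, median -0.82, and chr20:57648392-63739103, 53 genes, median -0.81), chromosome X (chrX:135520659-154490690, 68 genes, median -0.75) and chromosome 10 (chr10:104122058-124093598, 59 genes, median -0.64). In the first chromosome 11 stretch, 58 of 68 genes were below 0, 31 were called lower and 2 higher. For the same genes, P0 and P7 gave medians of -0.06 and -0.06 against P3 in that stretch and 0.09 and 0.09 in the long stretch of chromosome 19. The stretches were picked by these values, so the medians describe them and carry no test, and DNA copy number was not analysed here.

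**Figure D5:**
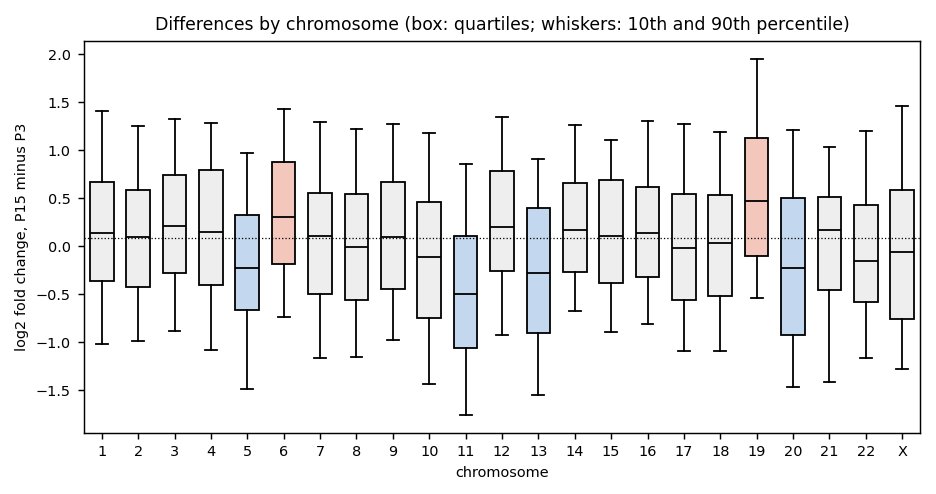
Log2 fold change, P15 minus P3, of the tested genes of each chromosome, with boxes from the lower to the upper quartile, a bar at the median and whiskers at the 10th and 90th percentiles. Red boxes have a median above 0.25 and blue boxes one below -0.2; chromosome 19 sits highest, with a median of 0.47, and chromosome 11 lowest, with -0.50. The dotted line is the median of all tested genes.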

How the data were processed

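RNA-sequencing libraries of GRC1 at P3 and P15, 4 each, were compared, and the 8 libraries of P0 and P7 entered the fit to share 1 estimate of the spread. Per the methods, paired-end reads were mapped to GRCh38 with STAR (2.6.1a in the submitters' processing notes) and assigned to genes with featureCounts. The table that the authors deposited holds CPM on a log2 scale, after adding 1 and with 2 decimals. Quantile normalization and centring on medians, also part of the methods, had not been applied to these values, since CPM still sums to the same total in each library and no value lies below 0. The annotation release, strand setting and treatment of multi-mapped reads are not given in the sources used here. Of the 247 genes given by value, 118 share exon bases with another annotated gene and are uncertain to that extent.

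limma 3.58.1 in R 4.3.3 was fitted with 1 coefficient per phase and a variance trend, and p-values were adjusted over 13318 genes. Tested on simulated data for this comparison, with 200 changed genes among 13318, it recovered 200 with 0 false calls. Python 3.11.15, numpy 2.4.6, pandas 2.3.3 and matplotlib 3.10.9 made the tables and figures.

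The genes and lists were chosen with earlier results of these data known. The named genes were the 15 largest rises and falls, up to 3 called genes per list and direction, and all members of the gemcitabine list and of lists of at most 12 genes. Of the 247, 43 lie outside this rule and were chosen after their values were seen. Of the 15 largest falls, 2 are not reported here, nor are some other genes that the rule names. The ribosomal protein and cancer-testis lists were built from name patterns. Results were recomputed with other minimum levels, with a pseudocount of 0.1 or 5, after quantile normalization or alignment of library medians, with a replicate block, without the variance trend, on the 8 libraries by themselves, without a minimum fold, with treat in limma, and after dropping every library once.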

Additional observations from a re-analysis of the deposited data

Results flagged for a closer look

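For 38 of 494 groups of 4 libraries, those of the 247 genes given by value in each of P3 and P15, 1 library lay apart from the other 3, with a gap to its nearest neighbour that exceeded Dixon's critical value for 4 samples as a share of the group's range. Chance alone gives about 25 such groups, 1 in 20. P3 replicate 2 accounted for 10 of them and P15 replicate 3 for 8. The values in parentheses are the gap as a share of the range.

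P3 replicate 1 was higher than the other 3 libraries of its phase for RRM2B (0.857) and TSHZ3 (1.0). P3 replicate 1 was lower than the other 3 libraries of its phase for IL32 (0.897) and KRT7 (1.0). P3 replicate 2 was higher than the other 3 libraries of its phase for ADM (0.833), ATF4 (0.9), ELF3 (0.923), JDP2 (0.88), MMP14 (1.0), PRAME (0.857) and RAC2 (0.889). P3 replicate 2 was lower than the other 3 libraries of its phase for FEN1 (0.833), HERC5 (0.846) and MCL1 (0.833). P3 replicate 3 was higher than the other 3 libraries of its phase for COL3A1 (0.95) and COL5A1 (0.852). P3 replicate 3 was lower than the other 3 libraries of its phase for CDA (0.983). P3 replicate 4 was higher than the other 3 libraries of its phase for TGFA (1.0). P3 replicate 4 was lower than the other 3 libraries of its phase for ATF3 (0.871), ESRP2 (0.96), IFIT1 (0.875) and TYMP (0.88). P15 replicate 1 was higher than the other 3 libraries of its phase for BATF3 (0.895). P15 replicate 1 was lower than the other 3 libraries of its phase for CACNG6 (0.84), FADS2 (0.889) and FOSL1 (0.958). P15 replicate 2 was higher than the other 3 libraries of its phase for APOBEC3B (0.875), KRT19 (1.0) and PSMB10 (0.971). P15 replicate 3 was higher than the other 3 libraries of its phase for APOBEC3F (0.913) and DDX58 (0.968). P15 replicate 3 was lower than the other 3 libraries of its phase for GATA3 (0.87), IL24 (0.833), INHBB (0.857), MMP10 (0.833), MMP3 (0.923) and RRM1 (0.875). P15 replicate 4 was lower than the other 3 libraries of its phase for MGST2 (0.852).

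The value of 1.0 for KRT19, KRT7, MMP14, TGFA and TSHZ3 means that the other 3 libraries had the same deposited value. Of these groups, the P3 libraries of COL3A1 had the widest range, from 0.0 to 1.61 on the log2 scale. Without P3 replicate 3 the log2 fold change of COL3A1 was 4.46, against 4.07 with it.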

How the results depend on the processing

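Of the alternatives tried, a pseudocount of 5 in place of 1 lowered the number of called genes most, to 2321, all of them among the 3670, with 1230 higher. Without the fold threshold, 11645 genes passed, 6324 higher and 5321 lower. Every other alternative left the counts within 1.5 times, from 2630 with more than 1 CPM required in each of the 8 libraries to 4191 with a pseudocount of 0.1. Leaving out 1 library at a time gave 3660 to 3690 called genes, 2092 to 2128 higher and 1551 to 1598 lower. A replicate block, by the number of the description or of the title, gave the same 3670, 2112 and 1558, and changed no call of a named gene. Same-numbered libraries did not deviate together, with correlations from -0.0734 to 0.102, so the numbers were not taken as pairs.

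Of 205 called genes given by value, 23 lost the call in at least 1 alternative, 17 of them with a pseudocount of 5 and 11 with the treat test, and none changed sign. FOSL1, HLA-DMA and HSPA5 lost it when 1 library was left out. Among uncalled genes, APOBEC3B changed sign with quantile normalization (-0.0128), and SLC29A3 with quantile normalization (-0.24), with the same median per library (-0.005) and without P3 replicate 4 (-0.0167, the values without 1 library running up to 0.0767). In lists with at least 3 calls in a direction, a pseudocount of 5 lowered the rises by more than 1.5 times for luminal genes (from 4 to 1), matricellular genes (5 to 3), integrins and laminins (7 to 4), interferons and receptors (5 to 1), VEGF and PDGF (3 to 1), TGF-beta and BMP (10 to 5), WNT (7 to 3), cell death (7 to 4), the MYC network (9 to 4), the channels (15 to 6) and the study's 23 genes (8 to 5). It lowered the falls as much for cytokines (11 to 7), EGF and FGF (3 to 1), HOX (9 to 4), the channels (6 to 3) and the study's 23 genes (5 to 3). The causes were not tested. Quantile normalization moved the median of all genes from 0.08 to 0.02. Totals of 33700000 to 44700000 counts per library limit what can be said of genes near 0.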
